A study of Mus musculus with 6 samples.

Results

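The receptor chains for interleukin-2 (IL-2) and interleukin-15 (IL-15), their kinase JAK3 and a few genes that the receptors induce were followed in natural killer (NK) cells after exposure to oleic acid (OA), a monounsaturated fatty acid. The members were chosen by gene symbol and are Il2ra, Il2rb, Il2rg, Jak3, Cish, Socs1 and Pim2, 7 of the 559 genes in the deposited table. NK cells, innate lymphocytes that kill infected and malignant cells, came from C57BL/6 mouse spleen as a purified fraction. The OA group (3 libraries) received 0.2 mM OA for 36 h and the control group (3 libraries) none, and both groups share the strain, tissue and culture time. The labels name no cytokine, mouse age or purification method, and say that the treatment was carried out 1 time. Nothing in them says that the libraries came from separate cultures or mice, so p-values measure the spread between these libraries, which may be technical. Values are TPM, a length-corrected share of each library that can be compared between genes. It holds no read counts, and the depth of the libraries is therefore unknown.

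IL-2 and IL-15 signal through a shared receptor. The beta chain (Il2rb) and the common gamma chain (Il2rg) carry the signal, and the alpha chain (Il2ra, CD25) raises the affinity for IL-2 and is induced when lymphocytes are activated. JAK1 and JAK3, kinases bound to the beta and gamma chains, phosphorylate the transcription factor STAT5, which switches on Cish, Socs1, Pim2 and Il2ra itself. CIS and SOCS1, the products of Cish and Socs1, dampen the signal in turn. NK cells depend on IL-15 for their survival, and IL-2 or IL-15 raises their killing capacity.

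All 7 members stood lower after OA, by modest amounts. Between the extremes of the set, Pim2 stood at 0.714 and Il2rg at 0.891 of the control mean. Of the 7, 6 fell at an adjusted p under 0.05 and 0 rose (limma on log2(TPM + 1), adjusted over all 559 genes, of which 40.1% passed as lower and 36% as higher). Il2rg did not pass. The table lists genes that the authors' own test had selected on these same libraries, with a largest Q value of 0.0499 in the authors' deposited table. The members' count therefore describes them and does not set them apart from the table. The median log2 fold change of the members was −0.26, beside −0.29 over the 272 listed genes that were lower and 0.14 over all 559. The 2 groups did not overlap for any member, as for 48.5% of listed genes in the same direction.

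**Figure D1:**
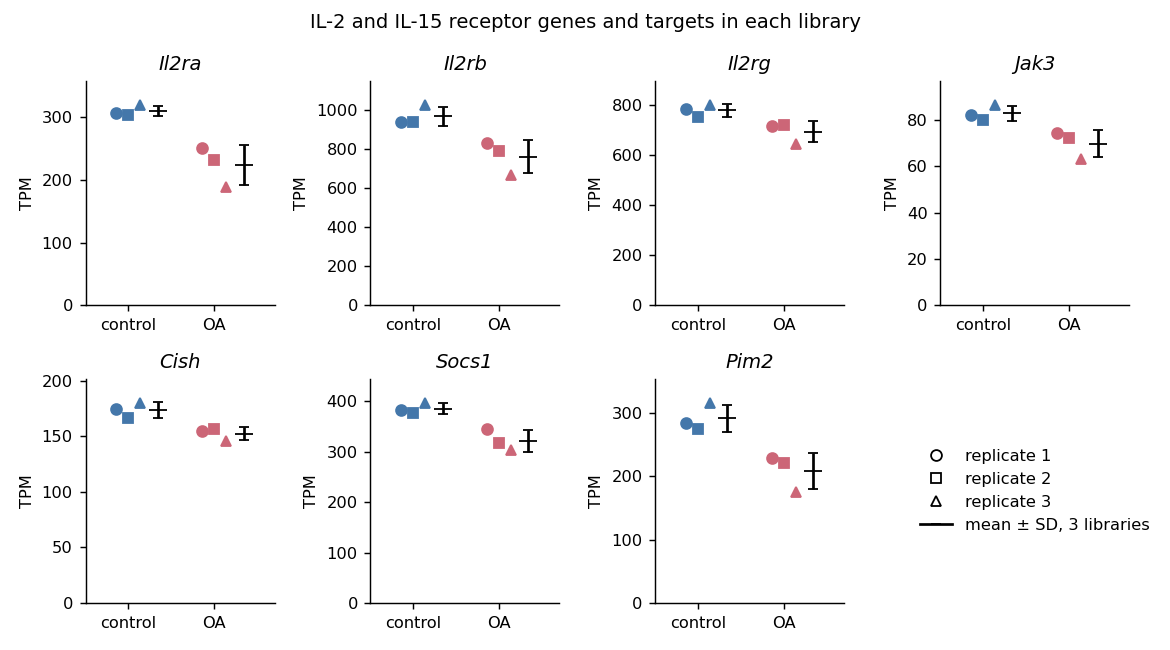
TPM (vertical axes, from 0) of each member in each library, with control in blue, OA in red, a marker shape per replicate number and the mean ± SD of 3 libraries in black. For every member the OA libraries lie below the control libraries, and OA replicate 3, the triangle, is the lowest.

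Il2ra, the alpha chain, had the deepest fall of the receptor chains. It stood at 306.50, 303.17 and 319.27 TPM in control replicates 1, 2 and 3. In OA replicates 1, 2 and 3 it held 250.43, 231.61 and 188.64 TPM. The control libraries were close together, while OA replicate 3 stood well under the other OA libraries. The gap between the lowest control and the highest OA library was 52.7 TPM. The mean fell by 27.8%, from 309.6 ± 8.50 to 223.6 ± 31.7 TPM (SD, n = 3 per group; log2 fold change −0.48, SE 0.114, 95% interval −0.77 to −0.19, adjusted p = 0.0278, limma). Of the 272 lower genes, 48 had a larger fall than Il2ra in the authors' deposited table. The gene lies at chr2:11642792-11693194 (RefSeq, GRCm38).

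Il2rb, the beta chain that IL-2 and IL-15 share, was the most abundant member. Its control libraries held 937.35, 935.49 and 1023.90 TPM and its OA libraries 827.27, 790.16 and 664.28 TPM. Control replicate 3 was high and OA replicate 3 low, and the groups lay 108 TPM apart at their nearest libraries. The mean fell by 21.2% (log2 fold change −0.35, SE 0.10, 95% interval −0.60 to −0.10, adjusted p = 0.0326, limma). Il2rb lies at chr15:78479256-78511621.

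Il2rg, the gamma chain shared with the receptors for IL-4, IL-7, IL-9 and IL-21, differed least. It stood at 784.65, 753.10 and 801.06 TPM in control and at 717.02, 722.47 and 645.50 TPM in OA. OA replicates 1 and 2 were close to each other and to the lowest control library, 30.6 TPM away, and OA replicate 3 was lower. The log2 fold change was −0.17 with a 95% interval from −0.33 to −0.003, and it missed the threshold (adjusted p = 0.0576, limma). The point estimate for Il2ra, −0.48, lies outside that interval, but the interval of Il2ra, −0.77 to −0.19, overlaps it. Il2rg lies at chrX:101264385-101268255.

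The shares of the 3 chain transcripts were compared within each library, which gives bulk RNA and not receptor protein. Il2ra made up 15.1%, 15.2% and 14.9% of the TPM of the 3 chains in control replicates 1, 2 and 3, and 13.95%, 13.3% and 12.6% in OA replicates 1, 2 and 3. The share of Il2rg was 38.7%, 37.8% and 37.4% in control and 40.0%, 41.4% and 43.1% in OA. Il2rg transcript thus took a larger part in each OA library than in any control library. A ratio within a library does not depend on how the libraries are scaled. It can depend on the mix of cells in the library, and the part of other cells was not tested. The log2 ratio of Il2ra to Il2rg was −1.33 ± 0.022 in control and −1.64 ± 0.128 in OA, a difference of −0.31. That of Il2rb to Il2rg went from 0.31 ± 0.049 to 0.13 ± 0.082, and that of Il2ra to Il2rb from −1.64 ± 0.036 to −1.77 ± 0.045 (SD, n = 3 per group). For each of these ratios the groups did not overlap (exact permutation p = 0.1, two-sided, the smallest p that 3 against 3 libraries allow; adjusted p = 0.12 over 6 ratios, by Benjamini-Hochberg). This design cannot pass 0.05 in that test. Ratios of other pairs of listed genes were not computed, so a lack of overlap does not set any of the 6 ratios apart from the table.

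Jak3, the kinase bound to the gamma chain, was the least abundant member. The control libraries held 82.18, 79.88 and 86.36 TPM and the OA libraries 74.33, 71.95 and 62.95 TPM. The nearest libraries of the groups were 5.55 TPM apart. Jak3 fell by 15.8% (log2 fold change −0.25, SE 0.0797, adjusted p = 0.0391, limma). Relative to Il2rg, whose chain it binds, its log2 ratio went from −3.22 ± 0.020 to −3.30 ± 0.043, without overlap (exact permutation p = 0.1, n = 3 per group; adjusted p = 0.12). Jak3 lies at chr8:71676383-71690577.

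Both inhibitor genes that the receptor induces fell. Cish, which encodes CIS, stood at 174.20, 166.47 and 180.15 TPM in control and at 154.69, 156.94 and 145.66 TPM in OA. Its OA libraries were as close together as its control libraries, with a SD of 5.97 TPM against 6.86 TPM. Cish fell by 12.2% (log2 fold change −0.19, SE 0.0569, adjusted p = 0.0352, limma). Socs1 stood at 381.99, 375.96 and 397.12 TPM in control and at 345.25, 317.35 and 302.75 TPM in OA, and fell by 16.4% (log2 fold change −0.26, SE 0.0659, adjusted p = 0.0285, limma). The OA libraries of Socs1 were spread more widely than the control libraries, which lay at least 30.7 TPM higher. The log2 ratio of Cish to Socs1 differed by 0.07 between the groups, which overlapped (exact permutation p = 0.3, n = 3 per group). Cish lies at chr9:107296659-107302784 and Socs1 at chr16:10783808-10785536.

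STAT proteins, STAT5 among them, bind a palindrome written TTCNNNGAA, which reads the same on both strands. It was searched in RefSeq promoter windows (GRCm38.p6) that run from 250 bases before to 50 bases after a gene's start, of which 6 of the 7 members had one. Cish held it 2 times and Il2ra, Il2rg, Jak3, Socs1 and Pim2 held it 0 times. In all 32851 windows 8.30% held the motif and 0.457% held it more than 1 time; in the 544 windows of listed genes these shares were 10.5% and 1.10%. The stretch of Cish is shown because it holds both copies, in capitals, and the 100 bases before the starts of Il2ra and Socs1 are shown as members without a match. A match in letters is not a measured binding site, and the absence of a match covers these windows alone.
Cish, chr9:107296654-107296683, plus strand: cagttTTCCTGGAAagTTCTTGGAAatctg
Il2ra, chr2:11642692-11642791, plus strand: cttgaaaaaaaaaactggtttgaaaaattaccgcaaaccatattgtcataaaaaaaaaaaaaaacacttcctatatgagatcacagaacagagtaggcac
Socs1, chr16:10785537-10785636, minus strand: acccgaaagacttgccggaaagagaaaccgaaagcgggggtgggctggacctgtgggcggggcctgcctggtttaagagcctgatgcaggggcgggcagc
In Cish the copies are TTCCTGGAA and TTCTTGGAA, and their first bases are bases 1 and 12 of the RefSeq transcript. GENCODE places the printed Cish stretch within the 5′ untranslated exon of a longer Cish transcript, and no exon over the other printed stretches.

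Pim2, which encodes a serine/threonine kinase that promotes survival and protein synthesis, had the largest fall of the set. The control libraries held 283.33, 274.53 and 315.87 TPM and the OA libraries 228.60, 220.40 and 175.27 TPM. Control replicate 3 was high and OA replicate 3 low, with 45.9 TPM between the nearest libraries of the groups. Pim2 fell by 28.6% (log2 fold change −0.49, SE 0.123, 95% interval −0.80 to −0.18, adjusted p = 0.0284, limma). Its log2 ratio to Il2rg went from −1.42 ± 0.069 to −1.74 ± 0.119 (exact permutation p = 0.1, n = 3 per group; adjusted p = 0.12). Pim2 lies at chrX:7878306-7883432.

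The order of the mean levels was the same in both groups, Il2rb, Il2rg, Socs1, Il2ra, Pim2, Cish and Jak3 from high to low. Il2ra and Pim2, next to each other in that order, overlapped in range in both groups, although Il2ra was higher within each library. Il2rb and Il2rg did not overlap in control, where Il2rb was 1.24 times Il2rg, and overlapped in OA, where it was 1.09 times Il2rg. Within each OA library Il2rb was still higher than Il2rg. All other neighbours were apart in both groups.

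The same libraries were extreme for every member. Control replicate 3 was the highest control library and OA replicate 3 the lowest OA library for 7 of 7 members; the same held for 90.1% and 96.7% of the 272 lower genes. Without OA replicate 3, limma called 4 members, Il2ra, Il2rb, Socs1 and Pim2 (24.7% of the table passed as lower). Without replicate 3 of both groups it called these and Jak3 (34.2% of the table passed as lower). In that last fit the log2 fold change was −0.34 for Il2ra, against −0.48 with all libraries, −0.21 for Il2rb, −0.31 for Pim2 and −0.09 for Il2rg. Limma called 0 members without control replicate 1, 0 without control replicate 2, 0 without control replicate 3 and 0 without OA replicate 2. In these fits 0%, 2.33%, 5.37% and 0% of the whole table passed as lower, so the loss was not particular to the members. At an unadjusted p under 0.05 these fits had 4, 6, 4 and 6 members, and 168, 184, 153 and 168 of the 559 genes, as lower. Without OA replicate 1 limma called 5, all but Il2rg and Cish (33.5% of the table passed as lower). OA replicate 3 also carried 7079 TPM of 15 listed heart muscle genes such as Myl2, Mb and Actc1, against 51.1 and 521 TPM in OA replicates 1 and 2 and 35.8 to 60.0 TPM in control. With these genes taken out of the scale of each library the log2 fold changes of the members ran from −0.49 to −0.16. The same 6 passed, with 41.3% of the table passing as lower. These 15 genes are a small part of the TPM scale, so this step could move the values only slightly. Other transcripts of heart muscle stayed in, and their part was not tested.

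**Figure D2:**
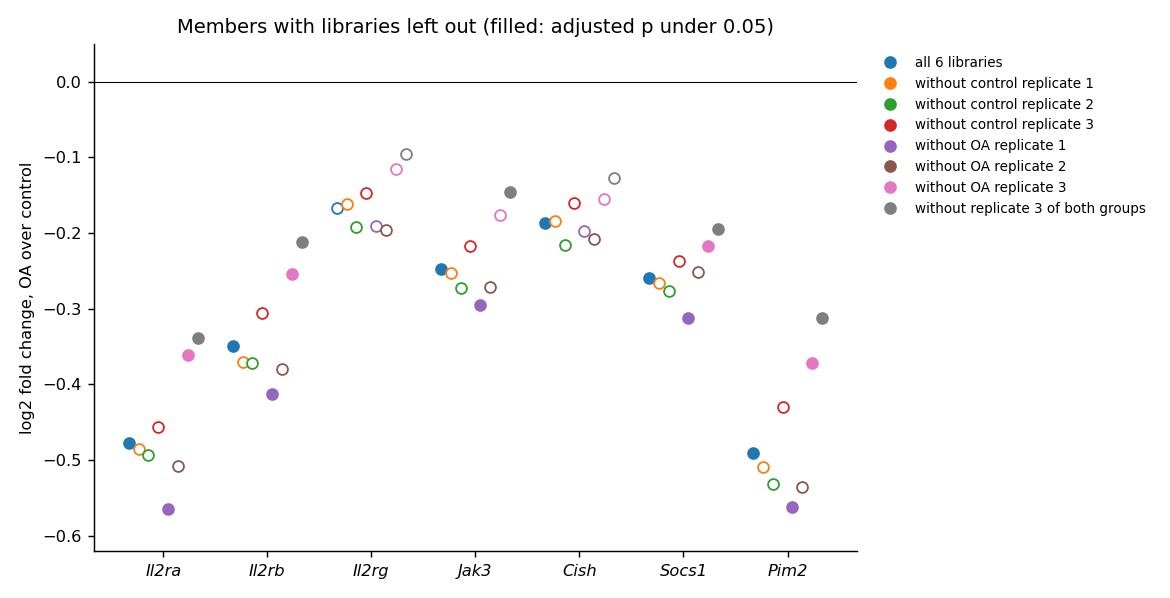
Log2 fold change of each member, OA over control, on the log2(TPM + 1) scale, with all 6 libraries and with libraries left out (colours); filled points have a limma adjusted p under 0.05. All points lie below 0, those without OA replicate 3 are nearer to 0 than those with all libraries, and Il2rg is open throughout.

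NK marker transcripts and those of other cells moved in the same libraries. In bulk RNA fewer NK cells and less of a transcript per NK cell cannot be told apart. Of 28 NK markers 12 were listed, and all 12 were lower in OA, 11 of them past the threshold. Beside this and the counts below, 40.1% of all listed genes passed as lower and 36% as higher. Ncr1 (NKp46), a defining NK receptor gene, fell from 131 ± 7.42 to 91.8 ± 12.9 TPM. The summed level of these 12 genes ran from 2359 to 2798 TPM in control and from 1561 to 1995 TPM in OA, highest in control replicate 3 and lowest in OA replicate 3, as for the members. Of 32 myeloid and dendritic cell markers 11 were listed, of which 9 rose and 2 fell, with sums of 1650 to 1943 TPM in control and 2230 to 2448 TPM in OA. Of 18 B cell markers 7 were listed, of which 6 rose past the threshold and 1 was higher without passing. Their sums were 360 to 446 TPM in control and 555 to 648 TPM in OA. Of 20 T cell and regulatory T cell markers, cells that can also carry Il2ra, the 2 listed, Icos and Cd28, fell, with sums of 259 to 291 TPM and 194 to 240 TPM. Of 11 mast cell and basophil markers the 3 listed, Kit, Mcpt8 and Hdc, fell, with sums of 240 to 255 TPM and 174 to 206 TPM. No listed gene of these 5 lists was at 0 in any library. The part of other cells in the members' values was not tested.

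Set against the NK markers of the same library, the members ranged from slightly lower to higher in OA, and no division among them was tested. The mean log2(TPM + 1) of the 12 listed NK markers was 6.97 ± 0.116 in control and 6.54 ± 0.181 in OA, a difference of −0.43. Il2ra and Pim2 kept close to that mean: the difference between the groups, after taking off the NK marker mean of each library, was −0.05 for Il2ra, with overlap (exact permutation p = 0.4, n = 3 per group), and −0.06 for Pim2, without overlap. The other members stood higher against the NK markers in every OA library than in any control library. Other listed genes were not set against the NK markers, so this does not set the members apart from the table. The 272 lower genes had a median log2 fold change of −0.29, itself a smaller fall than that of the NK marker mean. For these members the difference between the groups was 0.26 for Il2rg, 0.24 for Cish, 0.18 for Jak3, 0.17 for Socs1 and 0.08 for Il2rb. For Pim2 and these 5 members the exact permutation p was 0.1, the smallest possible with n = 3 per group (adjusted p = 0.117 over 7 members). The NK markers and the members alike were listed because the authors' test selected them on these libraries, and the 16 NK markers outside the table have no value here. The differences without replicate 3 of both groups were smaller for the members that stood higher, at 0.17 for Il2rg, 0.13 for Cish, 0.12 for Jak3, 0.07 for Socs1 and 0.05 for Il2rb. They were −0.08 for Il2ra and −0.05 for Pim2. The overlap of Il2ra came from control replicate 3, at 1.22 on this scale. Control replicates 1 and 2 stood at 1.34 and 1.36, and OA replicates 1, 2 and 3 at 1.29, 1.25 and 1.23.

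**Figure D3:**
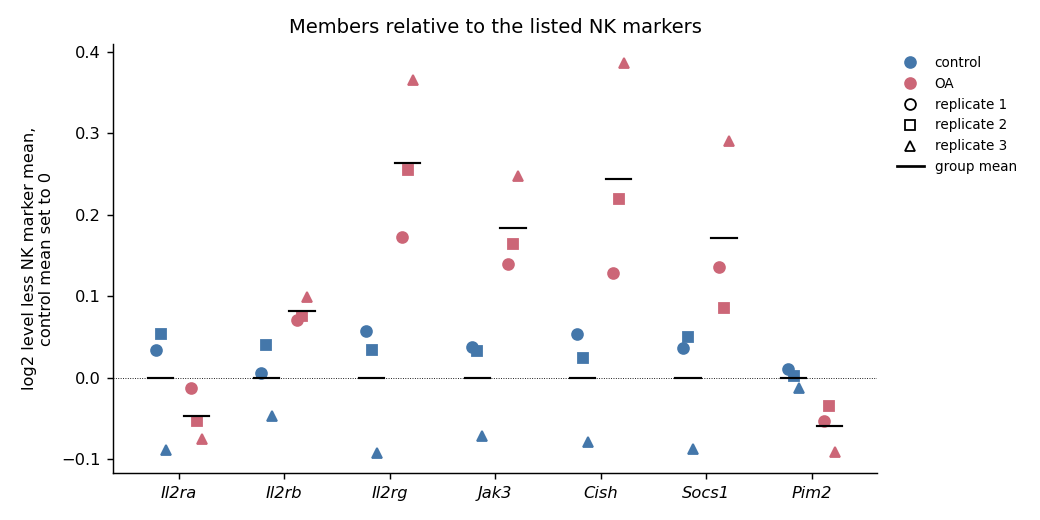
Log2(TPM + 1) of each member less the mean of the 12 listed NK markers in the same library (vertical axis), with the control mean set to 0; blue is control, red is OA, shapes mark replicate numbers and bars are group means. Il2rg, Cish, Jak3 and Socs1 lie above the controls in all 3 OA libraries by group means of 0.17 to 0.26, and Il2ra overlaps.

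**Figure D4:**
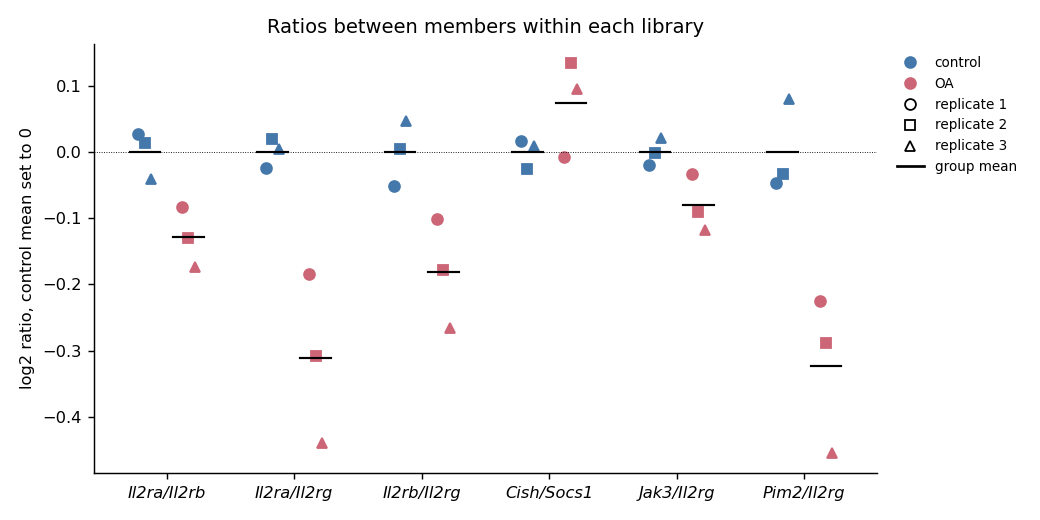
Log2 ratio of pairs of members within each library (vertical axis), with the control mean set to 0 in blue for control and red for OA, with shapes for replicate numbers and bars for group means. The ratios Il2ra/Il2rg and Pim2/Il2rg are lower in all 3 OA libraries, with mean differences of −0.31 and −0.32 on the log2 scale, and Cish/Socs1 overlaps.

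Of 44 further genes of IL-2 and IL-15 signalling, effectors and targets, the table held 15. Of these 13 fell, 1 rose and 1 missed the threshold, with a median log2 fold change of −0.27. Of all listed genes, 40.1% passed as lower, and the median was 0.14 over all genes and −0.29 over the lower ones. The other 29 genes have no value here. Genes of the pathway such as Il15ra, Jak1, Stat5a and Stat5b were among those outside the table, which does not show that they were unchanged. Lta, which encodes lymphotoxin alpha, stood at 354.23, 343.76 and 379.66 TPM in control and at 263.66, 236.34 and 187.10 TPM in OA (log2 fold change −0.66, SE 0.137, adjusted p = 0.026, limma). Tnfrsf18, the costimulatory receptor GITR, stood at 160.49, 160.79 and 181.75 TPM and at 139.42, 125.85 and 119.52 TPM, and fell to 0.765 of the control mean. Both had control replicate 3 high and OA replicate 3 low, as the members did. Ifng and Gzmb, effector genes that IL-2 and IL-15 raise, fell to 0.579 and 0.677 of the control mean. Smaller falls were in Bcl2, an inhibitor of cell death (0.825), Ccnd3, a cyclin (0.857), and Lck, a kinase that binds the beta chain (0.829 of the control mean).

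Listed paralogs of members were higher in OA, Pim3 past the threshold and Socs3 not. Pim3, a kinase of the same family as Pim2, stood at 43.15, 42.99 and 42.54 TPM in control and at 49.73, 48.77 and 58.08 TPM in OA, and rose 1.22-fold (log2 fold change 0.27, SE 0.0792, adjusted p = 0.0326, limma). Socs3, of the same family as Socs1 and Cish and known as an inhibitor of IL-6 signalling, stood at 311.93, 320.15 and 306.19 TPM in control and at 347.83, 339.31 and 330.54 TPM in OA. Its log2 fold change of 0.12 did not pass (adjusted p = 0.0627, limma), although the groups did not overlap. Myeloid cells also express both paralogs, and the myeloid markers were higher in the same libraries. Pim3 was highest in OA replicate 3, the library that carried the most heart muscle transcript. The part of myeloid cells and of heart muscle in these values was not tested.

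**Figure D5:**
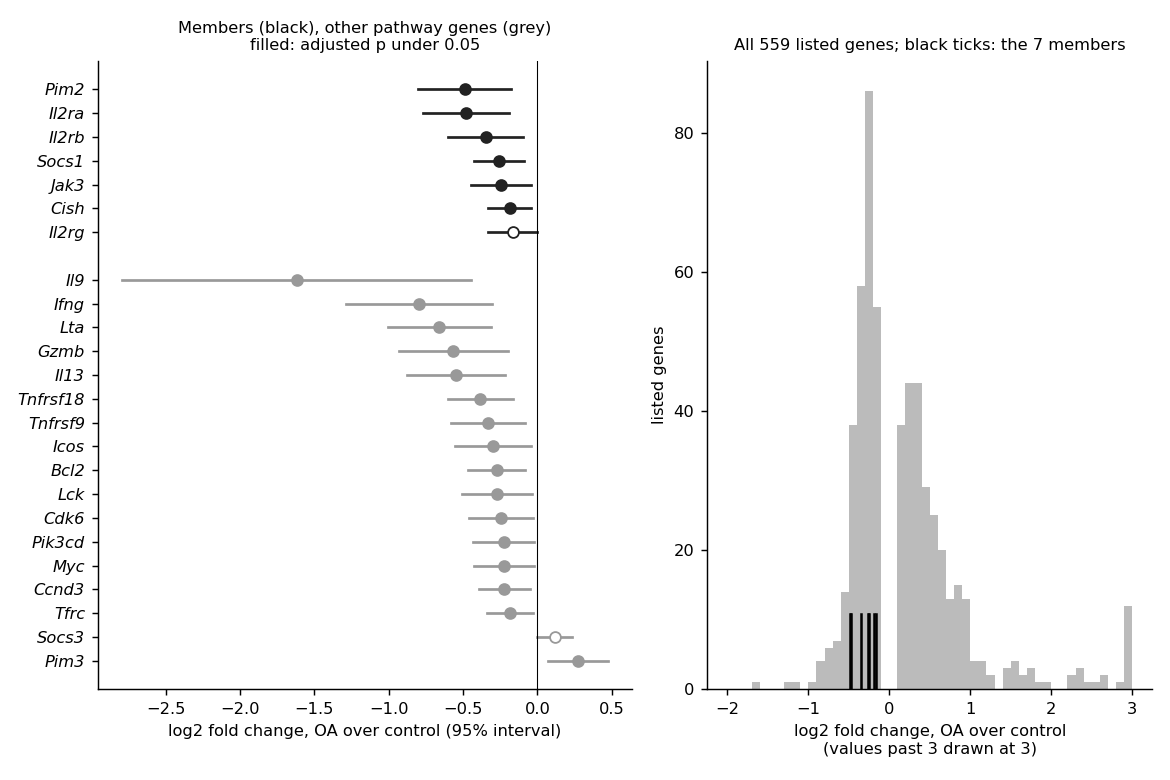
Left, log2 fold change of OA over control with its 95% interval for the 7 members (black) and the 17 listed genes of the pathway and common gamma chain lists (grey), filled where the limma adjusted p is under 0.05. Right, the number of listed genes by log2 fold change, with the members as ticks; few genes lie near 0 because the table lists selected genes, and the members sit among the many lower genes between −0.49 and −0.17.

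The patterns of the members were common in the table. For each member the gene outside the set with the most similar profile was taken as the smallest root mean square difference of log2(TPM + 1), each gene less its own control mean, over the 6 libraries. The nearest was Susd2 for Il2ra (0.037), Tnfrsf9 for Il2rb (0.022), Ly6e for Il2rg (0.018), Sema4a for Jak3 (0.015), Elmo1 for Cish (0.019), Zap70 for Socs1 (0.011) and Galnt3 for Pim2 (0.045). The median difference over the 552 other genes ran from 0.279 for Il2rg to 0.472 for Pim2. Between 53 genes, for Il2ra, and 170 genes, for Socs1, lay within 0.1 of a member. Within the set, Il2ra and Pim2 were nearest to each other (0.043), as were Il2rg and Cish (0.026). Counted among the 552 other genes, the nearest member ranked 1 for Pim2, 5 for Il2ra, 6 for Il2rg and 7 for Cish. It ranked 13 for Socs1, 35 for Jak3 and 90 for Il2rb.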

How the data were processed

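RNA from 3 control and 3 OA libraries of purified splenic NK cells was sequenced. Bowtie2, RSEM 1.3.1, DESeq2 1.4.5 and mm10 are named, without roles, per the submitters' processing notes; the annotation is not given in the sources used here. Per the file headers, the deposited table holds TPM per library and per group, the authors' log2 fold change (OA over control), P value and Q value, for 559 genes. The listed genes sum to 12.2% to 12.6% of the TPM scale. As TPM are not counts, limma 3.58.1 (R 4.3.3) was run on log2(TPM + 1) over all 559 genes with no filter, two-sided, with Benjamini-Hochberg adjusted p under 0.05; this scale understates changes of low genes. The fit was tested on simulated data with independent noise per gene and most genes unchanged. The deposited table holds selected genes with library shifts shared between genes, so that test does not check the adjusted p-values given here. No 2 libraries were identical; at most 14 genes had equal TPM in a pair.

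The members, lists and tests were chosen with earlier results of these data known. Named genes were the 7 members, up to 4 listed genes per direction with the smallest adjusted p from each of 2 pathway lists, up to 3 most abundant markers per list and each member's nearest profile; Ncr1, Bcl2, Ccnd3 and Lck and the heart muscle list were chosen after their values were seen. RefSeq (GRCm38) gave the sequences and positions, joined through the gene ID for 7 of 7 members. Python 3.11.15, scipy 1.17.1 and matplotlib 3.10.9 were used. Alternatives were other pseudocounts (0.1 and 10), a mean TPM of at least 10, equal medians, the replicate block, another prior, a threshold of 0.01, libraries left out and, chosen after seeing the data, a scale without heart muscle genes.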

Additional observations from a re-analysis of the deposited data

How the results depend on the processing

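In every fit all 7 members stood lower in OA, which for groups that do not overlap could not change by leaving out libraries. Leaving out 1 library at a time gave 0 to 5 members called lower, 0 to 187 listed genes called lower and 0 to 177 called higher, against 6, 224 and 201. The log2 fold changes then ran from −0.56 to −0.36 for Il2ra, −0.41 to −0.25 for Il2rb, −0.20 to −0.11 for Il2rg, −0.29 to −0.18 for Jak3, −0.22 to −0.15 for Cish, −0.31 to −0.22 for Socs1 and −0.56 to −0.37 for Pim2. With libraries scaled to equal medians 2 members (Il2ra and Pim2), 82 lower and 162 higher listed genes passed; Il2rb (−0.36), Jak3 (−0.26), Cish (−0.20) and Socs1 (−0.27) did not, and the median of all genes moved from 0.14 to 0.12. With the replicate block, and likewise at an adjusted p under 0.01, 0 members passed with unchanged values (Il2ra −0.48, Il2rb −0.35, Jak3 −0.25, Cish −0.19, Socs1 −0.26, Pim2 −0.49). The block left 0 listed genes lower and 0 higher (limma; 89 lower at an unadjusted p under 0.05), and the stricter threshold left 1 lower and 0 higher. Whether the shared replicate numbers pair the libraries is not known. Deviations from the group means correlated at 0.327, −0.109 and −0.081 over 559 genes for numbers 1, 2 and 3. Control replicate 2 with OA replicate 3 gave 0.350. With so few libraries such correlations cannot decide whether the numbers mark pairs. Il2rg passed with a pseudocount of 10 (−0.16), with a mean TPM of at least 10 (−0.17) and with an intensity trend and robust prior (−0.17). In these settings 45.3%, 51.9% and 46.3% of the tested genes passed as lower, against 40.1% in the main fit. Cish did not pass without replicate 3 of both groups (−0.13). No within-library difference changed sign under the pseudocounts, the NK list without granule genes or the libraries left out. The unknown depth leaves counting error unmeasured.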

Other observations

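Of 12 genes fixed as other receptors of the common gamma chain and related cytokines, Il9 and Il13 were listed, and both fell. Il9, whose product binds a receptor that contains the gamma chain, stood at 54.94, 49.70 and 72.72 TPM in control and at 30.19, 22.81 and 8.71 TPM in OA. The groups did not overlap, and the log2 fold change was −1.62 (SE 0.465, adjusted p = 0.0326, limma). Il13, whose product binds a receptor without that chain, stood at 230.29, 219.66 and 282.01 TPM in control and at 185.93, 162.49 and 150.03 TPM in OA (log2 fold change −0.55, SE 0.130, adjusted p = 0.0275, limma). For both, control replicate 3 was the highest control library and OA replicate 3 the lowest OA library. The listed mast cell and basophil markers, cells that also express Il13, were lower in the same libraries; their part was not tested.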
